A study of Homo sapiens with 9 samples.

Results

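The genes described here encode the histone demethylase LSD1 and the proteins it works with, the CoREST scaffolds, their histone deacetylases, and the 3 HP1 chromatin proteins. They are KDM1A, RCOR1, RCOR2, RCOR3, HDAC1, HDAC2, CBX1, CBX3 and CBX5, taken by symbol from the H2A gene table, where 9 of 9 were found among 20318 protein-coding genes. ChIP-seq was run on T47D-MTVL cells, a luminal breast cancer line into which a reporter under the MMTV promoter was integrated. All cells were kept in hormone-stripped serum and then without serum. The treated groups received R5020, a synthetic progestin, at 10 nM for 30 min (antibodies to HP1γ, LSD1, BPTF and histone H2A) or 60 min (H2A alone), and the unstimulated groups of the same antibodies were the 0 min samples. Each antibody and time was 1 library of this single line, so no difference below has a replicate check or a p-value, and RNA was not measured, so the luminal identity of the cells was not checked here. H2A and the listed binding of HP1γ, LSD1 and BPTF are given here at the genes of these same chromatin proteins. All coordinates are on GRCh37.

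LSD1, the product of KDM1A, removes methyl groups from histone H3, and in the CoREST complex an RCOR protein joins it to the nucleosome and to the deacetylase HDAC1 or HDAC2. HP1 proteins (HP1β from CBX1, HP1γ from CBX3, HP1α from CBX5) read a repressive methyl mark on H3 through their chromodomain and pair with one another. In T47D cells the progesterone receptor without ligand has been described as keeping HP1γ, LSD1, CoREST and the deacetylases at silent hormone target genes, from which hormone releases them. BPTF is the subunit by which the remodeller NURF, which slides nucleosomes, reads histone marks.

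H2A over the 9 genes moved little, was farthest from its starting level at 30 min, and lay near that level again at 60 min. At 30 min RCOR3 rose and HDAC1 and RCOR2 fell, each by about the same amount (RCOR2 stood at 0.041 once the trend with GC content was taken off), while KDM1A and CBX3, which encode the profiled proteins LSD1 and HP1γ, hardly moved. The deacetylase pair lay on opposite sides of 0, HDAC1 at -0.31 and HDAC2 at 0.23. Changes are log2 ratios of RPKM plus 0.05 and were counted past 0.25 either way. Of the 9 genes, 1 passed on the high side and 2 on the low side, against 4.79% and 29% of the 19709 genes averaging 0.1 RPKM or more (33.8% either way). The median of the 9 was -0.047, and the median of all genes was -0.14. Relative to that median of all genes, 2 of the 9 passed on the high side, RCOR3 at 0.42 and HDAC2 at 0.38, and 0 on the low side, against 15.7% and 6.38% of all genes, with HDAC1 at -0.16 and RCOR2 at -0.15. On that scale KDM1A stood at 0.17 and CBX3 at 0.19, farther from the median of all genes than HDAC1 and RCOR2. The H2A libraries held 140500000, 168250000 and 132750000 reads at 0, 30 and 60 min, recovered from the steps of the RPKM values. The counting standard errors below come from those reads divided by the number of transcripts annotated for the gene, since the table counts a read once per transcript. For the same reason a level says something only beside the same gene's level at another time.

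KDM1A (chromosome 1, 23345941 to 23410182) had 2.09 RPKM at 0 min, 2.13 at 30 min and 2.11 at 60 min. The 3 values lay within 1 counting standard error of one another, with log2 changes of 0.028 ± 0.085 at 30 min and 0.013 ± 0.090 at 60 min. RCOR1, the CoREST scaffold first described, had 2.20, 2.09 and 2.19 RPKM at 0, 30 and 60 min over its 137680 bases of chromosome 14. Its change at 30 min was -0.074 ± 0.019, small but beyond 2 counting standard errors, and at 60 min it was -0.0090 ± 0.020. RCOR2, the shortest of the 9 genes at 5624 bases, had 1.45, 1.18 and 1.39 RPKM, lowest at 30 min. Its change at 30 min was -0.29 ± 0.11, or -0.22 with 0.5 added to the RPKM, short of the threshold. RCOR3 had 6.89, 8.37 and 7.10 RPKM, highest at 30 min and with 0 and 60 min close together. Its change of 0.28 ± 0.032 at 30 min was the highest of the set and lay at percentile 96.5 of all genes, and at 60 min the change was 0.043 ± 0.036. The 3 RCOR paralogues thus spanned nearly the whole range of the set at 30 min. With the GC trend taken off they did not, and RCOR1, RCOR2 and RCOR3 stood at 0.033, 0.041 and 0.11.

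HDAC1 had 3.50, 2.82 and 3.38 RPKM at 0, 30 and 60 min. The 30 min library stood below both others, and the changes were -0.31 ± 0.046 at 30 min and -0.048 ± 0.047 at 60 min. HDAC2 had 4.25, 5.00 and 4.13 RPKM, so the 30 min library stood above both others. Its changes were 0.23 ± 0.084 at 30 min, short of the threshold, and -0.040 ± 0.093 at 60 min.

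Among the HP1 genes, CBX1 had 3.35, 3.00 and 3.29 RPKM at 0, 30 and 60 min, with a change of -0.16 ± 0.041 at 30 min. CBX5 had 2.77, 2.68 and 2.82 RPKM, with changes of -0.047 ± 0.035 at 30 min and 0.025 ± 0.036 at 60 min. CBX3 had 4.61, 4.76 and 4.71 RPKM, with changes of 0.047 ± 0.071 at 30 min and 0.032 ± 0.075 at 60 min. None of the 3 HP1 genes passed 0.25 at either time. Reads of CBX3, CBX1, HDAC1 and CBX5 are less certain over exons, since 10, 5, 2 and 1 pseudogenes named after them are annotated.

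**Figure D1:**
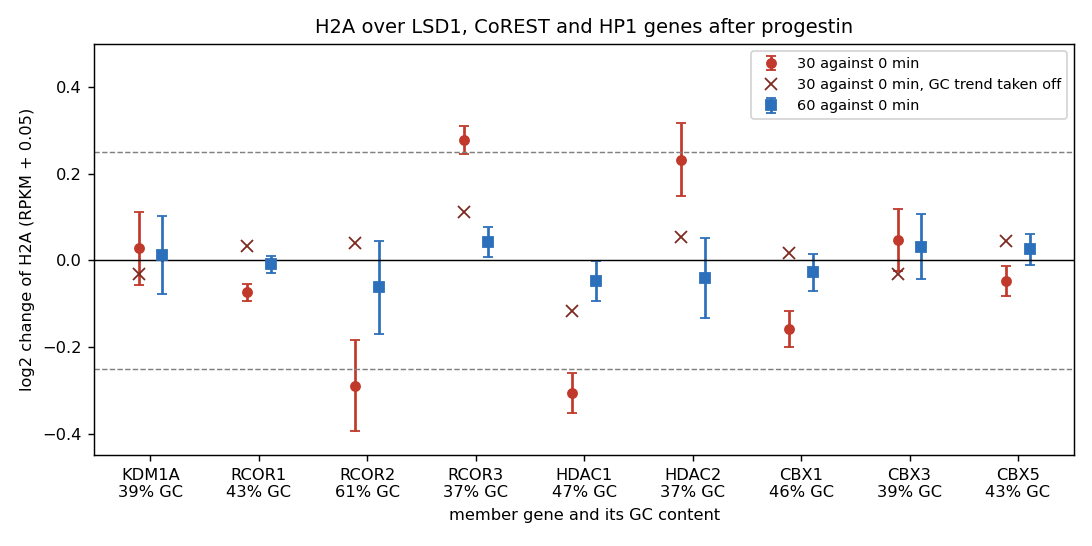
Points give the log2 change of H2A over each of the 9 genes, with counting standard errors as bars (1 library per time), crosses give the 30 min change with the GC trend of all genes taken off, and dashed lines stand at 0.25 either way. RCOR3 lies above the upper line and HDAC1 and RCOR2 below the lower one at 30 min, while at 60 min all 9 lie between -0.062 and 0.043.

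The order of the genes at 30 min nearly followed their base composition. HDAC2 and RCOR3, at 37.0% and 37.2% GC, had the highest changes. CBX3 and KDM1A, at 38.8% and 39.2%, lay near 0, and CBX5 and RCOR1, at 42.9% and 43.4%, lay slightly below. CBX1 and HDAC1, at 45.96% and 46.6%, and RCOR2, at 60.8%, had the lowest. The same trend ran through all 19709 genes (Spearman -0.846 across genes, which are not independent replicates). With that trend taken off, 0 of the 9 genes passed 0.25, against 4.09% of all genes, and the changes ran from -0.12 for HDAC1 (percentile 7.88 of all genes) to 0.11 for RCOR3 (percentile 90.2). RCOR2 then stood at 0.041, HDAC2 at 0.055, CBX5 at 0.045, RCOR1 at 0.033 and CBX1 at 0.018, and KDM1A and CBX3 at -0.032 each. The part of base composition in the changes of single genes was not tested. TRAF5, a signalling adaptor gene downstream of RCOR3 with 44.7% GC, had 4.53 RPKM at 30 min against 5.38 at 0 min. Its change was -0.24 beside the 0.28 of RCOR3, or -0.10 beside 0.11 with the GC trend taken off.

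**Figure D2:**
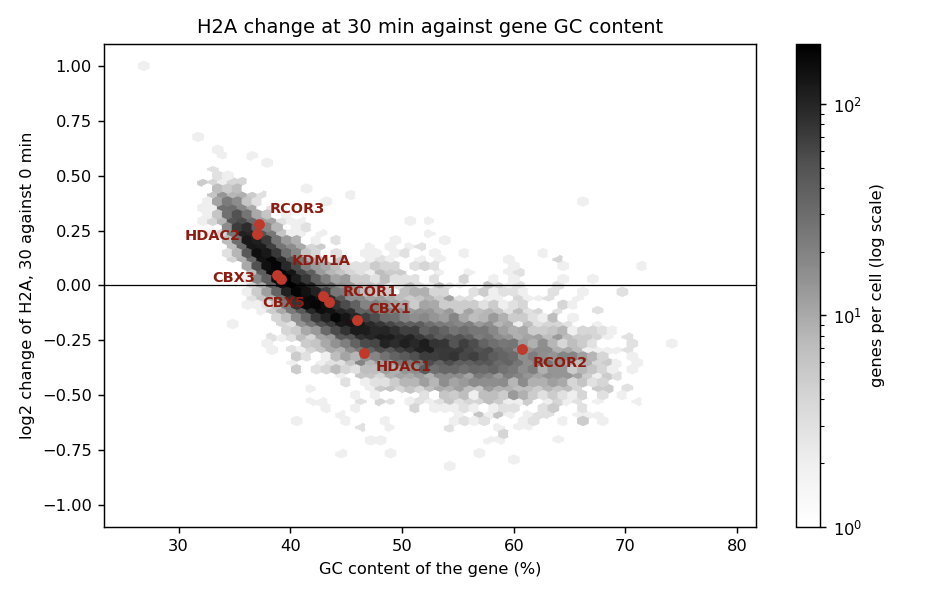
Each cell of the plot counts genes by GC content (x axis, %) and by log2 change of H2A at 30 against 0 min (y axis, changes past 1 drawn at 1), and the red points are the 9 genes. The genes lie along the trend of all genes, with RCOR3 (0.28) above it and HDAC1 (-0.31) below it.

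At 60 min 0 of the 9 genes passed 0.25 against 0 min, where 7.45% of all genes did, and the changes ran from -0.062 for RCOR2 to 0.043 for RCOR3, with a median of -0.0090 against -0.031 for all genes. Between 60 and 30 min the change was 0.26 ± 0.047 for HDAC1 and -0.27 ± 0.086 for HDAC2. These were the 2 members past 0.25, 1 on the high side and 1 on the low side, beside 7.88% and 2.4% of all genes (10.3% either way), with RCOR3 at -0.24 ± 0.033 and RCOR2 at 0.23 ± 0.11. Relative to the median of all genes, 0 of the 9 passed on the high side and 2 on the low side (2.86% and 6.98% of all genes), and with the GC trend taken off 0 passed (3.98%). Each pair of these 3 comparisons shares a library, so they are not independent of one another. By distance in the pair of changes from 0 min, the genes most like KDM1A among 12386 genes of at least 10 kb were CD226, SGTB and HTR2A (distances 0.0016, 0.0022 and 0.0023 on the log2 scale, over 3 libraries). Those most like CBX3 were UPF2, AP2B1 and NCK1 (0.0014, 0.0015 and 0.0016). These distances are far below the counting standard errors of KDM1A and CBX3.

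Partner genes of these proteins, with genes of other deacetylase complexes and the Polycomb chromobox genes, were read beside all genes at 30 min, of which 71.3% lay below 0 and 29% below -0.25, with a median of -0.14. Of 13 further LSD1 and CoREST partner genes, 4 were below -0.25 and 0 above 0.25, with a median of -0.16, near the share and the median of all genes. ZMYM3, a zinc finger subunit, had the lowest change at -0.41, followed by the corepressor genes CTBP1 at -0.32 and CTBP2 at -0.28 and by GSE1 at -0.32, while ZMYM2 was highest at 0.21. Of 14 genes of HP1 partners and of methylation of H3, 6 were below -0.25 and 0 above, with a median of -0.20, beside the same 29% of all genes. INCENP, of the chromosomal passenger complex, had -0.38 and TRIM28, the corepressor that recruits HP1, had -0.37. DNMT1, the maintenance DNA methyltransferase, had -0.32, CHAF1A of the histone chaperone CAF had -0.26, and the methyltransferase genes EHMT1 and EHMT2 had -0.26 and -0.25. ATRX was highest at 0.16. Of 12 genes of other deacetylase complexes, 4 were below -0.25, again near the 29% of all genes, among them MTA1 at -0.41, SIN3B at -0.27 and MTA2 at -0.25, with NCOR1 highest at 0.07 and a median of -0.17. The 5 Polycomb chromobox genes all lay below -0.25, with CBX8 lowest at -0.43 and CBX7 highest at -0.25, and with a median of -0.32. All 5 hold between 53.8% and 62.8% GC, whereas HP1 genes hold 38.8% to 45.96%. With the GC trend taken off, 0 of these 44 genes passed 0.25 and the medians of the 4 lists lay between -0.0064 and 0.0068. At 60 min 5 of the 44 lay below -0.25, ZMYM3 at -0.37, the kinase gene AURKB at -0.31, CBX6 at -0.34, CBX2 at -0.30 and CBX8 at -0.27, where 6.2% of all genes did. With the GC trend taken off, 0 genes in each of the 4 lists passed 0.25 at 60 min.

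Binding was read from the authors' peak lists in windows reaching 50 kb past both ends of each gene, 1.31 Mb in all, and the depth behind these lists is unknown. Scores in the HP1γ and LSD1 lists start at 30. HP1γ had 13 peaks in these windows at 30 min and 20 at 0 min. LSD1 had 11 at 30 min and 13 at 0 min. BPTF had 1 recruited and 0 displaced peaks. The peaks were unevenly spread, with 17 of the 58 around CBX3 and 14 around CBX5, against 1 each around HDAC1 and HDAC2. At least 1 HP1γ peak lay in the windows of 5 of 9 genes at 30 min and 8 of 9 at 0 min, where 50.2% and 53.6% of all genes have one. For LSD1 these numbers were 6 of 9 at 30 min and 4 of 9 at 0 min, where 50.1% and 44.5% of all genes have one. At the density of each gene's own chromosome, the windows would hold 12.3 HP1γ peaks at 30 min and 17.2 at 0 min, and 10.2 and 18.9 LSD1 peaks. Of the HP1γ peaks of both times, 39.4% were from 30 min (Wilson 95% interval 24.7% to 56.3%, over peaks), and genome-wide 42.8% were. Of the LSD1 peaks 45.8% were from 30 min (interval 27.9% to 64.9%), against 36.9% genome-wide. Both intervals hold the genome-wide share. They treat peaks as independent although many lie together around CBX3 and CBX5, so they are no test of a difference from the genome. Without CBX3 the other 8 windows held 9 LSD1 peaks at 30 min and 7 at 0 min, so the direction for LSD1 rests on CBX3. None of the 58 peaks came within 1 kb of the start of one of the genes as the H2A table gives it, where 2.46% and 4.24% of all genes have an HP1γ peak (30 and 0 min) and 1.74% and 2.39% an LSD1 peak (0.811% a recruited and 0.435% a displaced BPTF peak). By the later annotation, 29 of the 58 lay in introns, 15 in exons and 14 between genes.

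**Figure D3:**
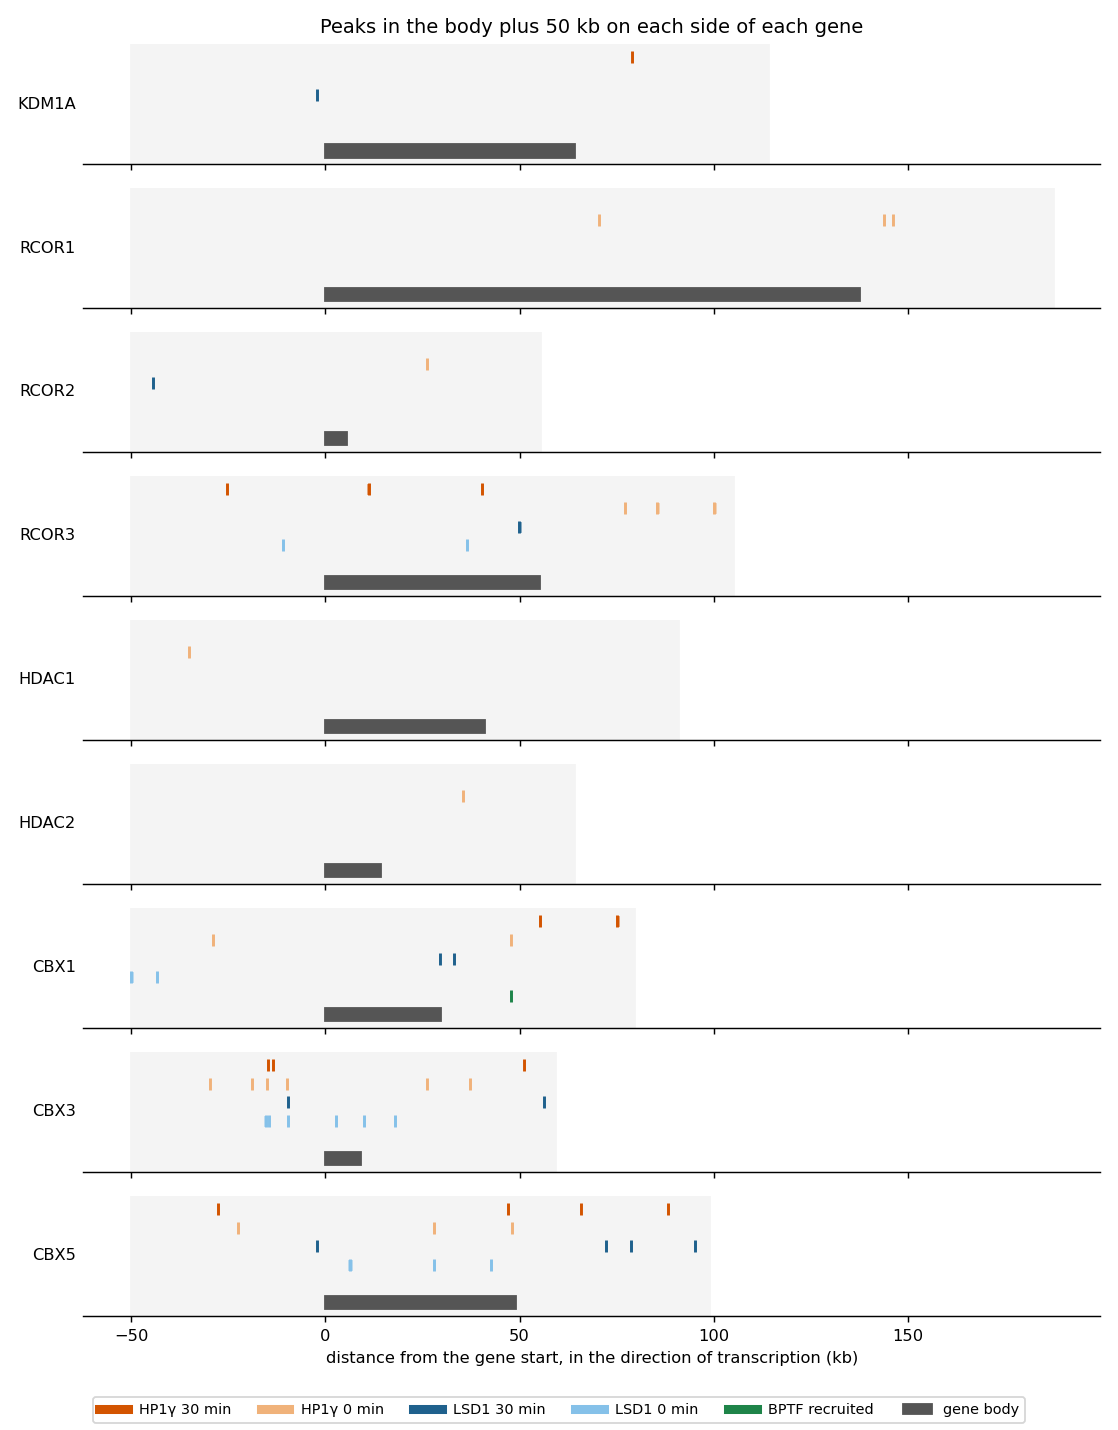
Each row is 1 gene, with distance from its start in kb along the direction of transcription on the x axis, the gene body in dark grey, the window in light grey and a tick at the midpoint of each peak (tick widths are not peak widths). CBX3 and CBX5 hold 17 and 14 of the 58 peaks, and the HDAC1 and HDAC2 windows hold 1 each, both HP1γ at 0 min.

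KDM1A had no HP1γ or LSD1 peak at 0 min and 1 of each at 30 min. Among all genes, 53.6% have an HP1γ and 44.5% an LSD1 peak of 0 min in such a window. Of all peaks of 30 min, 5.76% (HP1γ) and 6.38% (LSD1) overlapped one of 0 min. An LSD1 peak of 30 min (score 41.58, above 75.7% of its list) had its midpoint 2.06 kb upstream of the KDM1A start, in an intron of TEX46. It was the peak of the set closest to a gene start in the table, with its edge 1.81 kb away. The nearest LSD1 peak of 0 min lay 200.5 kb from the gene body. An HP1γ peak of 30 min (score 40.55) lay 14.8 kb beyond the 3′ end, in an intron of LUZP1. The LSD1 peak is repetitive. Of its 466 overlapping stretches of 30 bases, 36.3% occur once in the genome, and the most frequent has 89495 exact copies. How reads with several positions were treated is not given in the sources used here, so the placing of this peak at KDM1A is uncertain, and the part of the repeat in it was not tested.

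Of the RCOR genes, RCOR3 held the most peaks. HP1γ had 3 peaks there at 30 min, 2 of them in introns of the gene (scores 46.95 and 44.80), and 3 at 0 min, all downstream within TRAF5. The strongest of these (chr1:211509416-211510076) scored 81.11, above 99.4% of its list. LSD1 had 1 peak at 30 min in an intron of RCOR3 (chr1:211482300-211482897, score 55.53, above 95.8% of its list). At 0 min it had 2, at 11 kb upstream (score 53.96) and in an intron (37.18). None of the 9 peaks overlapped another, so no position of HP1γ or LSD1 recurred at RCOR3 between the times. Recurrence was also rare genome-wide, where 5.76% of HP1γ and 6.38% of LSD1 peaks of 30 min overlapped one of 0 min. The centre of the 30 min LSD1 peak, the highest-scored LSD1 peak of that time in the set, was the AT-rich sequence chr1:211482449-211482748 (30.7% GC), in which each stretch of 30 bases occurs once in the genome:
RCOR3 intron: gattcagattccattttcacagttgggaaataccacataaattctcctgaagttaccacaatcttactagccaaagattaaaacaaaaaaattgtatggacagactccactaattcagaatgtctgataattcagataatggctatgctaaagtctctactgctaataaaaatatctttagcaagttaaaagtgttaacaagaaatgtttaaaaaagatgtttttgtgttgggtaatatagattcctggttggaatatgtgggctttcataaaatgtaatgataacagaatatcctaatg
RCOR1 had HP1γ peaks at 0 min alone, 3 of them with scores of 40.01, 31.01 and 39.02, the first in an intron and the others 6.13 and 8.405 kb beyond the 3′ end, and no LSD1 peak at either time. RCOR2 had 1 LSD1 peak at 30 min, 44.4 kb upstream (score 40.44), and 1 HP1γ peak at 0 min in an intron of the kinase gene MARK2 (score 33.04).

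The deacetylase genes had 1 peak each. HDAC1 had 1 HP1γ peak at 0 min, 35.2 kb upstream in an intron of the T cell kinase gene LCK (score 36.69). HDAC2 had 1 HP1γ peak at 0 min with a score of 31.29, 21.0 kb beyond the end given in the H2A table and inside HDAC2 as the later annotation extends it. That score was above 14.4% of its list. LSD1 had 0 peaks at both genes at both times, where 50.1% of all genes had one at 30 min and 44.5% at 0 min. The nearest LSD1 peak to HDAC1 was 264.9 kb from the body at 30 min and 1221 kb at 0 min. For HDAC2 these distances were 177.8 and 703.7 kb.

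CBX3, the gene of HP1γ, stood in the window with the most peaks over all lists. At 30 min alone the CBX5 window held more, with 4 peaks of each protein (26.8 per Mb). In the CBX3 window HP1γ had 3 peaks at 30 min and 6 at 0 min, and LSD1 had 2 at 30 min and 6 at 0 min. At 30 min this came to 27.5 HP1γ peaks per Mb against 10.8 on chromosome 7, and 18.3 LSD1 peaks per Mb against 8.72. At 0 min both proteins had 54.9 per Mb, against 15.1 and 17.6 on the chromosome, a density above that of 98.7% (HP1γ) and 95.9% (LSD1) of the 917 genes there. These counts include peaks near the lowest score listed, among them an LSD1 peak at 30.01 and an HP1γ peak at 30.29. The LSD1 peaks of 0 min with the highest scores lay at the 3′ end of CBX3 (chr7:26251636-26252290, score 61.56), in HNRNPA2B1 (50) and in the first part of the CBX3 body, 2.76 kb from the start (48.42). The last of these was 467 bases from a start of CBX3 in the later annotation. The peak at the 3′ end lay past the end given in the H2A table (midpoint 0.625 kb beyond it) and inside CBX3 by the later annotation. Neither of the peaks at CBX3 itself had a 30 min counterpart, and genome-wide 3.71% of LSD1 peaks of 0 min overlapped one of 30 min. Of their stretches of 30 bases, 66.9% (3′ end) and 73.3% (body) occur once in the genome.

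Of the 11 peaks that shared a position with another list, 7 lay around CBX3, in 2 clusters in HNRNPA2B1, the splicing factor gene that is transcribed away from CBX3. One cluster was 15 kb upstream of the CBX3 start. There an HP1γ peak of 30 min (chr7:26227093-26227538, score 45.66) overlapped an HP1γ peak of 0 min (chr7:26226804-26227407, score 53.03), which in turn overlapped LSD1 peaks of 0 min on both sides (scores 50 and 37.65). The 194 bases common to the HP1γ peaks of both times and one LSD1 peak of 0 min, chr7:26227214-26227407, are part of the site where HP1γ was listed before and after hormone:
CBX3 upstream, far: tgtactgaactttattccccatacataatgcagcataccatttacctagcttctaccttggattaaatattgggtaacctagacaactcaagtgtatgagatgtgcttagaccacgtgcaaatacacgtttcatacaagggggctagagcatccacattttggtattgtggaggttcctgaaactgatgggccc
A second cluster was 9.5 to 10 kb upstream. There an LSD1 peak of 30 min (chr7:26232303-26232818, score 54.67) overlapped an LSD1 peak of 0 min (chr7:26232172-26232641, score 31.66) and an HP1γ peak of 0 min (score 34.69). The peaks of 0 min were weaker, above 17.0% (LSD1) and 43.8% (HP1γ) of their lists. The 82 bases common to the 3 peaks, chr7:26232303-26232384, are part of the site where LSD1 was listed at both times:
CBX3 upstream, near: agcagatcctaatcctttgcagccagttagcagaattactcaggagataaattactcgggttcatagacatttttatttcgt
Every stretch of 30 bases in both common sequences occurs once in the genome. These were the only sites in the 9 windows at which a protein had overlapping peaks at 30 and 0 min: 1 of 13 HP1γ peaks of 30 min and 1 of 20 of 0 min, and 1 of 11 LSD1 peaks of 30 min and 1 of 13 of 0 min. Genome-wide 5.76% and 4.31% of HP1γ peaks and 6.38% and 3.71% of LSD1 peaks did so. H2A over HNRNPA2B1 had 4.21 RPKM at 30 min against 4.15 at 0 min.

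**Figure D4:**
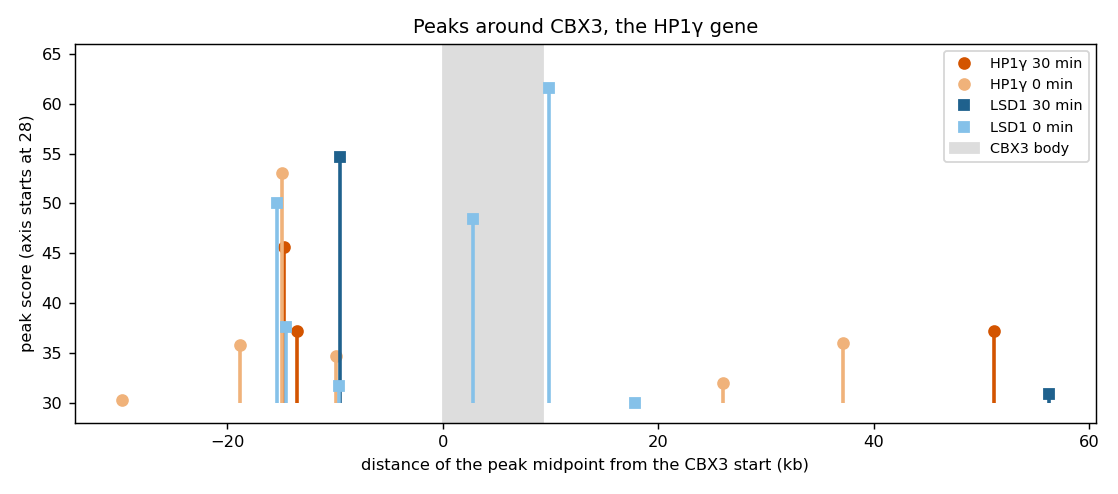
Peak scores (y axis, from 28, each score comparable within its own list alone) are plotted against the distance of the peak midpoint from the CBX3 start in kb, with the CBX3 body in grey. The HP1γ peaks of both times meet near -15 kb and the LSD1 peaks of both times at -9.52 kb (30 min) and -9.68 kb (0 min). The LSD1 peaks at CBX3 itself (48.42 and 61.56) were listed at 0 min and not at 30 min. The one at 61.56 lies just past the grey body and inside CBX3 by the later annotation. Genome-wide 3.71% of LSD1 peaks of 0 min overlapped one of 30 min.

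At CBX5, the HP1α gene, peaks over the gene body were listed mostly at 0 min. In the whole window each protein had 4 peaks at 30 min and 3 at 0 min. Most peaks of chromosome 12 were also from 0 min, with 31.6% of LSD1 and 40.55% of HP1γ peaks from 30 min. LSD1 had 0 peaks in the body at 30 min and 3 at 0 min. HP1γ had 1 in the body at 30 min and 2 at 0 min. The LSD1 peak of 0 min 6.25 kb from the start (chr12:54667145-54668127) had the highest LSD1 score of the set, 66.25, above 96.5% of its list. At 30 min the 4 LSD1 peaks lay outside the body, 1 of them 2.12 kb upstream in HNRNPA1 (score 34.92) and the others 23.1 to 46.1 kb beyond the 3′ end. The strongest HP1γ peaks of 30 min scored 58.69, near the 3′ end of the gene (chr12:54626559-54627180), and 57.70, at 16.5 kb beyond it. An LSD1 and an HP1γ peak of 0 min (scores 47.20 and 35.71) covered the same exon site inside the gene, within 126 bases of a start of a CBX5 transcript in the later annotation. Against its chromosome, CBX5 had 26.8 peaks per Mb of each protein at 30 min (15.4 for HP1γ and 12.6 for LSD1 on chromosome 12) and 20.1 of each at 0 min (22.6 and 27.3).

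CBX1, the HP1β gene, had 2 peaks of each protein at each time, with the LSD1 peaks on opposite sides of the gene at the 2 times. Few peaks recurred between the times genome-wide, where 6.38% of LSD1 peaks of 30 min overlapped one of 0 min. At 30 min both LSD1 peaks lay at the 3′ end, 1 in the last part of the body (chr17:46149032-46149521, score 41.94) and 1 beyond it at 3.32 kb (32.06). In the one beyond the gene, 37.6% of the stretches of 30 bases occur once in the genome. At 0 min both lay upstream in introns of the adaptor gene SKAP1 (58.15 and 31.26), and the stronger reached into the window with 376 of its 826 bases. HP1γ peaks lay 25.5 and 45.4 kb beyond the 3′ end at 30 min (32.69 and 31.99), and 17.9 kb beyond it and 28.8 kb upstream at 0 min (47.76 and 41.58). Those of 30 min scored above 14.2% and 4.48% of their list.

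**Figure D5:**
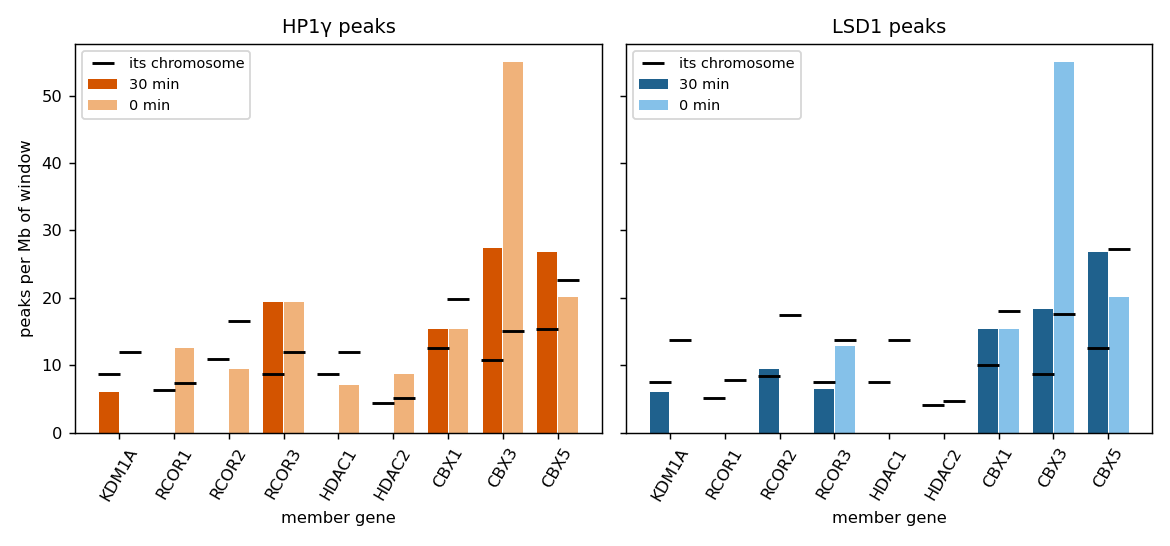
Bars give HP1γ and LSD1 peaks per Mb of each gene's window (30 min left of 0 min), and black marks give the density on the whole chromosome at the same time. CBX3 at 0 min, with 54.9 per Mb for both proteins, exceeds its chromosome the most, and KDM1A, RCOR1, RCOR2, HDAC1 and HDAC2 have no LSD1 bar at 0 min.

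In these windows LSD1 and HP1γ shared a few sites at 0 min, most of them around CBX3. They shared none at 30 min, when few peaks were shared genome-wide. At 30 min 0 of 11 LSD1 peaks overlapped an HP1γ peak of that time (0 of 13 HP1γ peaks). At 0 min 4 of 13 LSD1 peaks did (30.8%, or 3 of 20 HP1γ peaks, 15%), at CBX3 in 3 cases and at CBX5 in 1. Genome-wide the shares were 3.56% of LSD1 and 3.08% of HP1γ peaks at 30 min and 7.08% and 7.83% at 0 min. With an overlap of at least 50% of the shorter peak, 1 of the 13 LSD1 peaks of 0 min (7.69%) shared a site, and without CBX3 1 of 7 did.

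BPTF was listed at 1 place in the 9 windows. The recruited peak (chr17:46130670-46131184) lay 17.9 kb beyond the 3′ end of CBX1, in an intron of the transcription factor gene NFE2L1, and overlapped the HP1γ peak of 0 min listed there (chr17:46130754-46131200, score 47.76, above 86.8% of its list). No HP1γ or LSD1 peak of 30 min overlapped it. Genome-wide 5.03% of recruited BPTF peaks overlapped an HP1γ peak of 0 min. The central 300 bases of the overlap, chr17:46130820-46131119, are part of the single site of the set at which BPTF was recruited and HP1γ was listed before hormone:
CBX1 downstream: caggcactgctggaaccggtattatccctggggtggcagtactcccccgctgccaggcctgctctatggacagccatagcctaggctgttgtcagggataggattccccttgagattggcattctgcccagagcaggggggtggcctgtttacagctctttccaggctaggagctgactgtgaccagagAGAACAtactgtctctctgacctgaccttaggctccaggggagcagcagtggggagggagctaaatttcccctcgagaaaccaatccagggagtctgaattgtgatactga
The capitals mark TGTTCT, the hexamer of the progesterone receptor element, searched on both strands, here 1 match. A recruited peak lies in the window of 12.2% of all genes and a displaced one in that of 18.3%, against 1 and 0 of the 9. The nearest peak outside a window was a recruited one 50.2 kb from the body of CBX3, followed by displaced ones 56.4 kb from CBX5 and 59.8 kb from RCOR2. Over NFE2L1 H2A had 14.7 RPKM at 30 min against 18.3 at 0 min, a change of -0.32, or -0.04 with the GC trend taken off.

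The hexamer was no more frequent in the windows than elsewhere. In the central 300 bases, 12 of the 58 peaks held TGTTCT on either strand, and 24.7% of all peaks of the 6 lists did. The palindrome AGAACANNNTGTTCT, which contains the hexamer, was found in 0 of the 58 and in 0.0101% of all peaks. The other 3 sequences printed above hold no such hexamer and so have no capitals. In base composition the LSD1 peaks of 30 min in the windows had a median of 45.1% GC against 38.1% in their whole list, and those of 0 min had 38.3% against 37.55%. HP1γ peaks had 43.5% against 38.95% at 30 min and 43.35% against 42.1% at 0 min. Of the 58 peaks 29 consisted wholly of stretches of 30 bases that occur once in the genome, and in 4 under 50% did. Those 4 were the LSD1 peaks of 30 min upstream of KDM1A and downstream of CBX1, an HP1γ peak of 0 min beyond RCOR1 (39.4%) and an HP1γ peak of 30 min upstream of RCOR3 (46.0%).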

How the data were processed

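H2A was read at 0, 30 and 60 min and HP1γ, LSD1 and BPTF at 0 and 30 min, with 1 library for each of the 9 samples. The build was hg19 (GRCh37) and the tools named are HOMER 4.7.2 and Bowtie 1.0.0, per the submitters' processing notes. The deposited H2A values are RPKM for protein-coding genes, counted with HOMER on both strands over version 18 of GENCODE, per the file headers. Each HP1γ or LSD1 peak has a score in the deposited lists, none below 30. Its definition, the caller's settings and the control are not given in the sources used here. Deposited lists for BPTF give positions of recruited and displaced peaks without a score, and positions were read as zero-based starts. The depth of the peak libraries is unknown.

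Depth of the H2A libraries was recovered from RPKM steps of single-transcript genes under 1500 bases: 97.4%, 94.1% and 97.4% of the values used lay within 0.1 of a whole read. Counting errors and Wilson intervals cover counting error only. The number of transcripts came from version 44 of GENCODE lifted to GRCh37, so errors are too large where it exceeds version 18. Changes were log2 ratios after adding 0.05 RPKM, so changes of low genes are understated, and genes averaging under 0.1 RPKM were left out. Such a fold, and a peak overlap of at least 1 bp, was a description with no test. The GC trend was a lowess curve (statsmodels 0.14.6, span 0.3). Named genes were the 9 members, partners past 0.25 or at a list's end, and for peaks the highest score of each list, those within 1 kb of a start, BPTF peaks and shared sites. A few further peaks were named after their values were seen. Some genes and site sequences that the rule covers are not reported here. The scripts were tested on simulated data. Members, lists and windows were chosen with earlier results of these data known. Alternatives are given in the closing section.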

Additional observations from a re-analysis of the deposited data

How the results depend on the processing

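No paired analysis was possible because each antibody and time is 1 library, and no replicate could be left out. The depth of the HP1γ, LSD1 and BPTF libraries is unknown, which limits what peak numbers show. Taking the GC trend off left 0 of 9 members past 0.25 at 30 against 0 min, and 0 between 60 and 30 min. It turned RCOR2 at 30 min to 0.041 and left 0 of the 44 partner genes past 0.25, with a median of -0.0018 against -0.21. Centring on all genes turned the members' median at 30 min to 0.10, and left 6 of the 44 partner genes past 0.25 instead of 19 (15.7% and 6.38% of all genes passed high and low when centred, and 33.8% either way when not), with a median of -0.072. With a pseudocount of 0.5, RCOR2 at 30 min fell short of the threshold at -0.22, 12 partner genes passed, and 0 members between 60 and 30 min. A threshold of 0.5 left 0 members at 30 min, 0 between 60 and 30 min and 0 partner genes. BPTF peaks numbered 0 recruited with 5 kb on each side, and 2 recruited and 4 displaced with 100 kb. An overlap of 50% of the shorter peak gave 7.69% of LSD1 peaks of 0 min sharing a site with HP1γ. The share of peaks from 30 min stayed within its interval under every alternative run, from 39.2% to 50% for HP1γ and from 28.6% to 56.25% for LSD1. The intervals are wide and the alternatives reuse many of the same peaks, so this shows little. The 50% for HP1γ came from 3 and 3 peaks (5 kb on each side) or 2 and 2 (score of at least 50). The 28.6% for LSD1 came from 2 and 5 peaks. The highest LSD1 value came without CBX3, where 9 peaks of 30 min stood against 7 of 0 min, so the direction turned. Leaving out CBX3 and the use of the later gene bounds were chosen after seeing the data.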
